A study of Homo sapiens with 36 samples.

Results

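The experiment described here is the induction of NR2F1 by doxycycline (DOX) in 1205LuTR-NR2F1 melanoma cells that received no pathway inhibitor. It was set by the sample labels, as 3 DMSO + DOX libraries against 3 DMSO libraries, which are 6 of the 36 RNA-Seq libraries of the series. 1205Lu is an established human metastatic melanoma line. In 1205LuTR-NR2F1 the Tet repressor holds an NR2F1 cDNA off until DOX is added, so both groups carried the repressor and the cDNA. The labels give a first step of 24 hours with or without DOX at 100 ng/mL. It was followed by 72 hours in DMSO, the solvent of the inhibitors, again with or without DOX. The methods of the study mention DOX before treatment without setting a group apart, so whether the DMSO libraries were free of DOX in the first 24 hours is not given by the sources used here. No library received DOX in the absence of the cDNA, and the effects of DOX and of NR2F1 therefore cannot be told apart. The 1205Lu cells given PLX4720 at 1 µM and PD0325901 at 35 nM (BRAFi + MEKi), with or without DOX, served for comparison. Their libraries also entered the estimate of the spread within 1205Lu. The WM793 and A375 lines under DMSO served only for comparison.

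NR2F1, also called COUP-TFI, is an orphan nuclear receptor that binds DNA as a dimer at repeats of a short half-site and can repress or activate transcription. It acts in neural crest and nervous system development, and in several tumor models it has been tied to dormancy, a state in which disseminated tumor cells survive without dividing. In BRAF-mutant melanoma the question is what NR2F1 overexpression does to the cell, here before any drug is added. DMSO + DOX against DMSO asks which transcripts differ once the cDNA is switched on in growing cells.

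Values are the authors' normalized expression values, 1 per gene and library, and fold changes are log2(value + 1) differences from limma. A gene was called when its Benjamini-Hochberg adjusted p was under 0.05 over the 22144 genes tested. The 6 libraries summed to between 32441955 and 34229373 in these units, with 19010 to 20293 genes above 0, and an estimate from their commonest low values put them at 24800000 to 52900000 reads. Pearson's r between any pair of the 6 libraries was between 0.976 and 0.984 across genes. Of 7 melanocyte markers, only SOX10 and MITF reached a mean of 30 over the 6 libraries, with SOX10 at 5684 to 10572 and MITF at 68.3 to 164, and 2 were at 0 in all 6 libraries. MLANA and TYR, which define pigment cells, were the markers at 0, and PMEL stood at 5.9 to 23.2. PDGFRA, used as a fibroblast marker, stood at 4223 to 7295 and CD68, used as a leukocyte marker, at 1760 to 2409. None of the 10 endothelial markers reached a mean of 30 over the 6 libraries, and the highest, KDR, stood at 19.5 to 39.7. Of 10 fibroblast markers only PDGFRA and FAP reached that mean, and 2 were at 0 in all 6 libraries. Of 10 leukocyte markers only CD68 and ITGAM reached it, and 4 were at 0 in all 6. These genes made up nearly all of the sum of their type. The fibroblast sums were 5374 to 7724 in DMSO and 6790 to 7219 in DMSO + DOX. The leukocyte sums were 1931 to 2446 and 1809 to 2510.

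NR2F1 itself was higher with DOX in each replicate. Its normalized values were 6273, 2182 and 2327 in DMSO and 20699, 9155 and 9270 in DMSO + DOX. The lowest DMSO + DOX library lay above the highest DMSO library, and in both groups replicate 1 was far above the other two. The means were 3594 ± 2321 and 13041 ± 6632 (SD, n = 3), and the log2 fold change was 1.93 ± 0.38 (SE), or 3.81-fold, with a 95% interval from 1.12 to 2.74. NR2F1 did not pass the test over all genes (limma adjusted p = 0.41). With the replicate number as a block, which removes the shared height of replicate 1, it rose (log2 fold change 1.93 ± 0.23 (SE), limma adjusted p = 0.02). The 3 same-numbered pairs differed by 1.72, 2.07 and 1.99 on the log2 scale. The call rested on the set of libraries fitted. Of 6 fits with the block that left out 1 library, only that without DMSO replicate 1 called NR2F1 (limma adjusted p = 0.0047, and 0.044 without the block), and the other 5 gave limma adjusted p from 0.074 to 0.23. The fit of only the 6 libraries compared, with the block, gave 0.53.

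The gene lies on chromosome 5 from 93583222 to 93594611 on the plus strand of GRCh38. Reads of the cDNA and of the cell's own NR2F1 transcript both count toward this value and were not separated. NR2F1-AS1, a long noncoding RNA on the opposite strand, overlaps its start, and the library kit kept no strand. NR2F1-AS1 stood at 731, 806 and 560 in DMSO and at 705, 669 and 744 in DMSO + DOX. Its groups overlapped, and its log2 fold change was 0.03, with a 95% interval from -0.40 to 0.46.

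The closest relatives of NR2F1 did not pass the test. NR2F2, or COUP-TFII, stood at 1707, 1469 and 1082 in DMSO and at 1382, 1078 and 1106 with DOX, with a log2 fold change of -0.24 and a 95% interval from -0.81 to 0.33. NR2F6, another member of the family, stood at 537, 586 and 289 in DMSO and at 347, 342 and 331 with DOX. Its log2 fold change was -0.40, with a 95% interval from -0.91 to 0.10, and it became 0.28 once values were adjusted for GC content and length. Among 14 measured COUP-TF partners and corepressors none was called or had an unadjusted p under 0.05, and the list had a median log2 fold change of -0.06. SP1, a DNA-binding factor that COUP-TF receptors can bind, was the one with the smallest unadjusted p, with values of 1396, 1288 and 1690 against 1775, 1736 and 1954.

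Across all genes, 1 was raised and 1 was lowered, each 0.00452% of the 22144 tested. The raised gene was IL6, which encodes the secreted cytokine interleukin-6. With the replicate block 2 genes were raised, NR2F1 and IL6, or 0.00903%, and 1 was lowered, or 0.00452%. At an unadjusted p under 0.05, 550 genes (2.48%) were higher and 966 (4.36%) were lower. These counts became 919 and 1310 with the block. The shares without the block are the ones to set beside the counts of each list below. Among the 13659 genes that averaged 30 or more in either group, the median SE was 0.21, and the 95% interval of 78.1% of them lay within a change of 1 log2 unit either way. For most well-measured genes, a change of more than 2-fold was therefore outside the interval of these libraries.

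**Figure D1:**
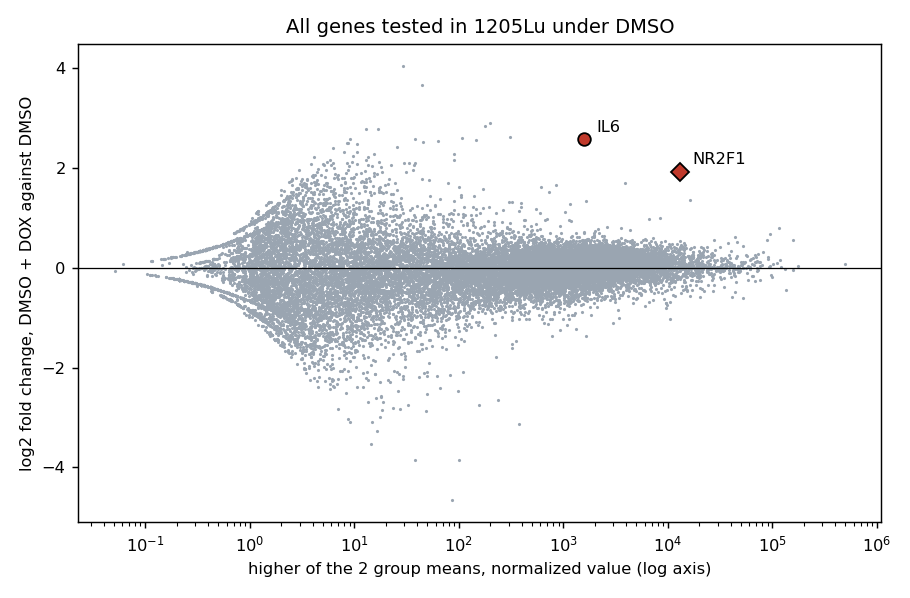
Each point is 1 of the 22144 genes tested in 1205Lu; the x axis gives the higher of the 2 group means (normalized value, log axis) and the y axis the log2 fold change of DMSO + DOX against DMSO. IL6 (2.58, circle) was the raised gene, and NR2F1 (1.93, diamond) was called with the replicate block.

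IL6 rose about 6-fold. It stood at 260, 242 and 261 in DMSO and at 2118, 1220 and 1379 in DMSO + DOX. The DMSO libraries lay close together and the groups were far apart, with replicate 1 the highest of the DOX libraries, as it was for NR2F1. The means were 254 ± 10.7 and 1573 ± 479 (SD, n = 3), the fold change was 5.99, and the log2 fold change was 2.58 ± 0.21 (SE), with a 95% interval from 2.14 to 3.03 (limma adjusted p = 0.00015). The pairs differed by 3.02, 2.33 and 2.40 on the log2 scale. IL6 stayed called when any 1 of the 6 libraries was left out, with log2 fold changes from 2.35 to 2.74. It was not called when only the 6 libraries compared were fitted, with the same log2 fold change. The limma adjusted p was then 0.13, and 0.53 with the replicate block. That fit has fewer libraries from which to estimate the spread, and the cause of the lost call was not tested.

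IL6 lies on chromosome 7 from 22725884 to 22732002 on the plus strand of GRCh38. IL6-AS1 and STEAP1B overlap its start on the opposite strand. IL6-AS1 had means of 9.73 and 16.9, and STEAP1B had means of 920 and 903 with a log2 fold change of -0.02. The promoter of IL6 is shown because this gene gave the strongest call of the comparison. It is the RefSeq window of GRCh38.p14 at chr7:22726950-22727249, plus strand, from 250 bases before to 50 bases after the transcript start.
IL6 promoter: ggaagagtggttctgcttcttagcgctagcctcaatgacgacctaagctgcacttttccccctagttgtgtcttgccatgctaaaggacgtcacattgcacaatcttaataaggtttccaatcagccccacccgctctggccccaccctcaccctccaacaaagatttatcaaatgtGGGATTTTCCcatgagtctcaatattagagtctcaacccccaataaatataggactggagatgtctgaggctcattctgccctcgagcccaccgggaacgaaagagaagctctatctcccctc
The capitals mark a match to GGGNNTTTCC, a form of the NF-kB motif, and it begins 73 bases before the start. Searched on both strands, this motif occurred in 1.91% of 35116 promoters of that length. The COUP-TF half-site AGGTCA (13.8% of promoters), the AP-1 motif TGAGTCA (4.95%) and the cyclic AMP response element TGACGTCA (1.85%) had no match in this window. The AGGTCA half-site is also contained in the direct repeat AGGTCANAGGTCA, which matched 0.0228% of promoters and not this one. These are matches of letters and were not tested against binding.

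**Figure D2:**
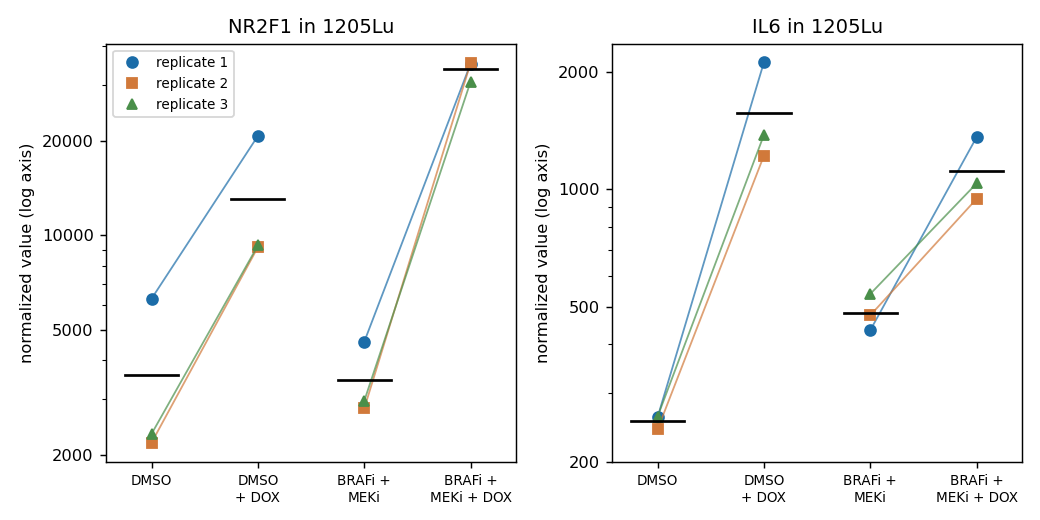
Normalized values (log axis) of NR2F1 and IL6 in the 12 libraries of 1205Lu; symbols mark the replicate number, thin lines join same-numbered libraries without and with DOX, and black bars are group means. Under DMSO, IL6 went from 242 to 261 up to 1220 to 2118, while NR2F1 of replicate 1 was the highest in both DMSO groups.

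Genes that act with IL6 were then described, from a list of 20 genes that was chosen after its call had been seen. In IL-6 signalling no gene was called, and at an unadjusted p under 0.05 there were 2 higher and 0 lower. STAT3, the main transcription factor downstream of the receptor, stood at 2408, 1655 and 2167 in DMSO and at 2505, 2663 and 2903 with DOX (log2 fold change 0.39 ± 0.16 (SE), limma adjusted p = 0.68). JAK2, a kinase bound to the receptor, stood at 549, 373 and 515 and at 917, 669 and 555 (0.56 ± 0.22 (SE), limma adjusted p = 0.68). Both were separated between the groups, as were 3 of the 20 genes in the upward direction and 0 downward. Over all genes tested, 5.35% were higher in every DOX library than in any DMSO library, and 6.95% were lower in this sense. The median of the IL-6 signalling list was 0.12, and 0.04 after adjustment for GC content and length.

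The other secreted cytokines showed no call beside IL6. Of 24 secreted cytokines measured, IL6 among them, 12 were higher and 12 lower, and the median was 0.00. IL24 stood at 146, 1.62 and 0.878 in DMSO and at 548, 28.5 and 18 with DOX. It was higher in each pair, but replicate 1 held most of it in both groups and the groups overlapped. IL11, a cytokine of the IL6 family, stood at 1724, 448 and 374 and at 765, 334 and 329 (log2 fold change -0.59 ± 0.51 (SE), limma adjusted p = 0.86).

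Sequence composition moved with the DOX difference over all genes, and this bears on each gene group that follows. Across the 13783 genes that averaged 30 or more over the 12 libraries, the log2 fold change correlated with the GC content of the longest transcript at r = -0.45 and with its log2 length at r = 0.26, as descriptions across genes that are not independent. In the quintile of genes with the lowest GC content, up to 40.5%, the median log2 differences of the 3 pairs were 0.25, 0.16 and 0.05. In the quintile with the highest GC content, above 57.6%, they were -0.37, -0.29 and -0.07. The order was the same in all 3 pairs, and replicate 3 showed the least of it. In the lowest quintile 406 genes were higher in all DOX libraries and 31 lower, and in the highest quintile 22 were higher and 635 lower. Genes higher at an unadjusted p under 0.05 had a median GC content of 40.3% and those lower had 61.3%, against 47.8% over all. The part of this trend in the results was not tested, so the medians of most lists are given before and after an adjustment that removes the trend by construction. IL6 (47.3% GC) lay near the middle, and its log2 fold change after the adjustment was 2.57.

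**Figure D3:**
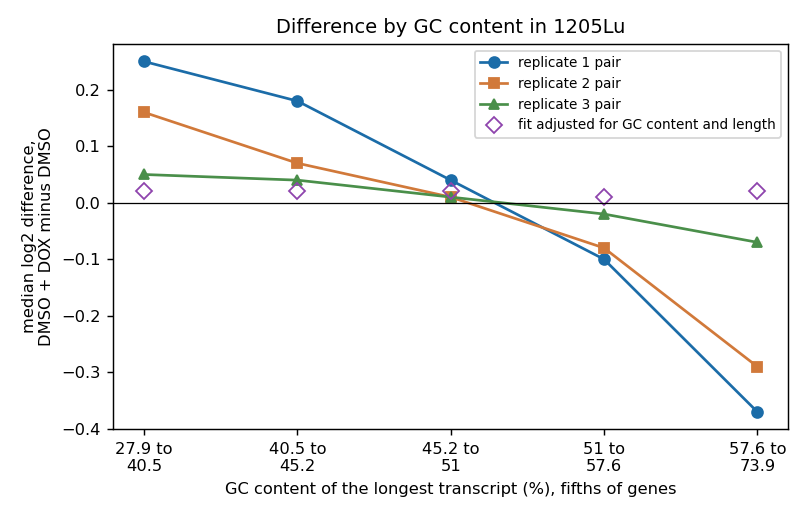
The x axis divides the 13783 genes into quintiles by the GC content of their longest transcript (%), and the y axis gives the median log2 difference of DMSO + DOX minus DMSO; lines are the 3 same-numbered pairs and open diamonds the fit adjusted for GC content and length. The medians ran from 0.25, 0.16 and 0.05 at low GC content to -0.37, -0.29 and -0.07 at high GC content, and the adjusted medians were 0.01 to 0.02.

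The dormancy axis comprises genes that other work has placed with NR2F1 in dormant tumor cells, and none of its 17 measured genes was called, with 1 higher and 2 lower at an unadjusted p under 0.05. Its median was -0.10, and 0.00 after the adjustment. TGFB1, a growth factor that restrains or promotes tumors by context, stood at 1558, 1718 and 1179 in DMSO and at 979, 835 and 815 with DOX. The groups did not overlap, and the log2 fold change was -0.75 ± 0.18 (SE), or -0.41 after the adjustment (limma adjusted p = 0.58). GAS6, the ligand of the AXL receptor, stood at 673, 484 and 451 and at 425, 366 and 340. RARB, the retinoic acid receptor beta, stood at 1063, 1378 and 1423 and at 1631, 1544 and 1702 (log2 fold change 0.35 ± 0.16 (SE), limma adjusted p = 0.72). RARB also belongs to the retinoic acid response, of which 21 genes were measured and none called (2 higher and 0 lower at an unadjusted p under 0.05), with a median of 0.00, or 0.11 after the adjustment, and pair medians of 0.19, -0.16 and -0.14. CRABP2, which carries retinoic acid to its receptors, stood at 2545, 2538 and 2495 and at 2004, 1454 and 1596. All 3 of its DMSO libraries were above its DOX libraries.

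Neural crest genes were mostly lower with DOX and melanocyte differentiation genes lay on both sides of 0, and none was called. Of 20 neural crest markers measured, 18 were lower and 2 higher, with a median of -0.30, or -0.23 after the adjustment. The libraries of 4 did not overlap in the lower direction and those of 1 in the higher, against 6.95% and 5.35% of all genes tested. At an unadjusted p under 0.05, 3 were lower and 0 higher, against 4.36% and 2.48% of all genes tested. FOXD3, a transcription factor of neural crest progenitors, stood at 553, 465 and 257 in DMSO and at 273, 188 and 204 with DOX, so that DMSO replicate 3 fell among the DOX libraries. The FOXD3 log2 fold change of -0.88 became -0.44 after the adjustment. SNAI2, which drives crest cell migration, stood at 8682, 6272 and 4745 and at 6933, 3041 and 2942. SOX10, the lineage factor of crest and melanocytes, stood at 9510, 10572 and 7464 and at 5684, 6094 and 6028. The SOX10 groups did not overlap, and its log2 fold change was -0.62 ± 0.17 (SE), or -0.35 after the adjustment (limma adjusted p = 0.58). Of 16 melanocyte differentiation genes tested, 10 were lower and 5 higher, with a median of -0.13, or -0.08 after the adjustment, and pair medians of 0.00, 0.00 and -0.18, and 1 was lower and 0 higher at an unadjusted p under 0.05. EDNRB, the endothelin receptor of melanoblasts, stood at 382, 261 and 284 and at 267, 200 and 201. MC1R, the melanocortin receptor, stood at 1393, 1179 and 1252 and at 1045, 1108 and 1076. MITF, the master regulator of melanocytes, stood at 155, 68.3 and 119 and at 164, 146 and 137, with overlap (log2 fold change 0.46 ± 0.32 (SE), limma adjusted p = 0.83). GFRA2, a receptor for neurturin that is also in the list of GDNF ligands and receptors, stood at 33.2, 53.9 and 54.2 and at 11.8, 19.9 and 26.2 (log2 fold change -1.28 ± 0.45 (SE), limma adjusted p = 0.65).

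Of 25 genes of the invasive melanoma state, 17 were higher and 8 lower with DOX, with a median of 0.22, or 0.23 after the adjustment, and none was called (1 higher and 0 lower at an unadjusted p under 0.05). In 6 of the 25 every DOX library was above every DMSO library, against 5.35% of all genes tested, and in 0 was it below. CCN1, a matricellular protein and YAP target, stood at 446, 1926 and 1578 in DMSO and at 2063, 4763 and 4719 with DOX. Replicate 1 was the lowest in both groups, the reverse of NR2F1, and the pairs differed by 2.21, 1.31 and 1.58 on the log2 scale. The log2 fold change was 1.70 ± 0.78 (SE), with a limma adjusted p of 0.72, or 0.068 with the replicate block. TEAD1, the DNA-binding partner of YAP, stood at 8382, 6436 and 9998 and at 11486, 10530 and 10041. JUN, an AP-1 subunit, stood at 4256, 2759 and 2129 and at 2762, 1655 and 1816, with overlapping groups. Over the 20 AP-1 and immediate early genes the median was -0.23, but -0.03 after the adjustment, and none had an unadjusted p under 0.05. JUND stood at 1204, 846 and 379 and at 609, 416 and 378, and its log2 fold change went from -0.67 to -0.02 with the adjustment.

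Among 20 ERK output genes, which report MAPK signalling, none was called, 1 was higher and 0 lower at an unadjusted p under 0.05, and the median was 0.06, or 0.09 after the adjustment. EPHA4, an ephrin receptor, stood at 199, 290 and 438 in DMSO and at 556, 469 and 611 with DOX, without overlap (log2 fold change 0.88 ± 0.28 (SE), limma adjusted p = 0.62). SPRED1, an inhibitor of RAS, stood at 4100, 3518 and 3377 and at 5549, 4108 and 3917, and MYC at 2983, 3458 and 2669 and at 2479, 2643 and 2679. Of 24 receptor tyrosine kinases, with a median of 0.11, or 0.03 after the adjustment, none was called or had an unadjusted p under 0.05. FGFR3 had the smallest unadjusted p of those averaging 30 or more, with a log2 fold change of -0.54 ± 0.28 (SE). ERBB2 had a log2 fold change of 0.36 ± 0.22 (SE).

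Cell cycle genes did not pass the test under DMSO. The 43 S phase genes had a median of 0.02, or 0.05 after the adjustment, and 24 were higher and 19 lower, of which 0 and 1 had an unadjusted p under 0.05. POLD1, the catalytic subunit of DNA polymerase delta, stood at 1059, 1089 and 1098 in DMSO and at 503, 642 and 825 with DOX. The POLD1 log2 fold change of -0.75 became -0.44 after the adjustment. CCNE2, a cyclin of the G1 to S transition, stood at 1416, 939 and 1420 and at 2451, 1714 and 1681. Of the 54 G2 and M phase genes, 41 were higher and 13 lower, the median was 0.11, or 0.09 after the adjustment and 0.07 when each library was scaled to an equal total, and the pair medians were 0.12, 0.06 and 0.09. In 11 of these 54 genes every DOX library lay above every DMSO library, against 5.35% of all genes tested. CENPE, a kinetochore motor, stood at 2848, 2084 and 2828 and at 3840, 3248 and 3234. HMMR stood at 1681, 1556 and 2110 and at 2428, 2391 and 2472. No log2 fold change of the 54 was above 0.46. None had an unadjusted p under 0.05 in the fit of 12 libraries, whose spread takes in the BRAFi + MEKi groups. CDKN1A, which encodes the cell cycle inhibitor p21 and is a p53 target, stood at 8271, 5424 and 4445 and at 5570, 3636 and 3807, and the 22 p53 targets had a median of -0.03, or -0.06 after the adjustment, with 2 lower and 0 higher at an unadjusted p under 0.05.

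The oxidative phosphorylation and mitochondrial ribosome lists were mostly lower. Of 75 nuclear subunits 58 were lower, with a median of -0.07, or -0.05 after the adjustment, and pair medians of -0.11, -0.14 and -0.02, and no gene was called (4 lower and 0 higher at an unadjusted p under 0.05). NDUFS7, a complex I subunit, stood at 1112, 1030 and 627 in DMSO and at 308, 381 and 467 with DOX. The groups did not overlap, and the log2 fold change was -1.24 ± 0.23 (SE), or -1.03 after the adjustment (limma adjusted p = 0.41). NDUFB7 stood at 1319, 1305 and 1091 and at 618, 804 and 957, with a log2 fold change of -0.66 that became -0.19. Of 76 mitochondrial ribosome genes 56 were lower, with a median of -0.11, or -0.06 after the adjustment, and pair medians of -0.12, -0.23 and 0.01. At an unadjusted p under 0.05, 10 were lower and 0 higher, against 4.36% and 2.48% of all genes tested. MRPL34 stood at 786, 508 and 385 and at 298, 275 and 350 and MRPS24 at 2715, 2604 and 1744 and at 1456, 1543 and 1604. With the adjustment the log2 fold change of MRPL34 went from -0.80 to -0.40 and that of MRPS24 from -0.59 to -0.53. In both lists the median of the replicate 3 pair lay near 0. The mRNAs encoded by the mitochondrial genome did not share this order, as 10 of 13 were higher, with a median of 0.06, or 0.12 after the adjustment, and pair medians of 0.41, -0.25 and 0.18. MT-ND6 stood at 960, 731 and 871 and at 1544, 1102 and 1090. The 78 cytosolic ribosomal protein genes had a median of -0.02, or 0.01 after the adjustment, and RPS15, at 12380, 9778 and 7269 and at 4576, 6063 and 6637, was the member with the smallest unadjusted p.

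Genes of growth and folding stress lay slightly higher. Of 66 mTORC1 targets 53 were higher, with a median of 0.12, or 0.13 after the adjustment and 0.08 with rescaled libraries. HSPD1, a mitochondrial chaperonin, stood at 32341, 31189 and 32863 in DMSO and at 46044, 37172 and 38309 with DOX, and its groups did not overlap. SC5D, a sterol desaturase, stood at 2950, 1843 and 2146 and at 4175, 2956 and 2809. Of 23 cholesterol synthesis genes 19 were higher, with a median of 0.15, or 0.19 after the adjustment. HSP90AA1, the inducible HSP90, stood at 78231, 41641 and 57856 and at 126322, 74718 and 80737, and 15 of 18 heat shock genes were higher, with a median of 0.19, or 0.17 after the adjustment. SLC7A1, an arginine transporter among the ATF4 stress genes, stood at 6050, 4900 and 5840 and at 7345, 6915 and 6858, and 25 of those 36 genes were higher, with a median of 0.13, or 0.23 after the adjustment. No gene of these lists was called, the genes higher at an unadjusted p under 0.05 were 3, 1, 2 and 1 in the mTORC1, cholesterol, heat shock and ATF4 lists with 0 lower, and the largest log2 fold change was 1.14.

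Antigen presentation genes were mostly lower and interferon response genes mostly higher. Of 22 antigen presentation genes 18 were lower and 3 higher, with a median of -0.31, or -0.18 after the adjustment, and in 7 every DOX library was below every DMSO library, against 6.95% of all genes tested. CIITA, the class II transactivator, stood at 25.5, 24.7 and 54.4 in DMSO and at 7.41, 15.2 and 11.7 with DOX. Of 42 interferon response genes 29 were higher, with a median of 0.18, or 0.08 after the adjustment, and pair medians of 0.05, 0.07 and 0.30. The libraries of 3 did not overlap in the higher direction and those of 4 in the lower, against 5.35% and 6.95% of all genes tested. IFIT2 stood at 72.3, 46.0 and 43.6 and at 86.1, 120 and 128, while GBP2, also interferon-induced, stood at 559, 689 and 458 and at 422, 349 and 314. Both genes were separated between the groups, in opposite directions, and neither was called. At an unadjusted p under 0.05, 2 antigen presentation genes were lower and 0 higher, and 3 interferon response genes were higher and 1 lower.

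No collagen, integrin, laminin, matrix protease, WNT or calcium release gene was called, with values on both sides of 0. Of 25 collagens, 5 were lower and 1 higher at an unadjusted p under 0.05, against 4.36% and 2.48% of all genes tested. The libraries of 5 did not overlap in the lower direction and those of 1 in the higher. These non-overlapping counts were 6 and 3 of 28 matrix proteases and inhibitors, and 5 and 3 of 28 WNT genes. Over all genes tested the shares were 6.95% and 5.35%. SERPINE2, a secreted protease inhibitor, stood at 55155, 73319 and 68755 in DMSO and at 92984, 123559 and 127136 with DOX, without overlap (log2 fold change 0.80 ± 0.31 (SE), limma adjusted p = 0.68). ITGA6, the laminin receptor subunit alpha 6, stood at 19863, 28878 and 33658 and at 33508, 39308 and 41011, with DMSO replicate 3 just above the lowest DOX library. COL9A3 stood at 12872, 11888 and 6882 and at 3913, 4955 and 6378, and its log2 fold change of -1.03 became -0.53 after the adjustment. Over 25 collagens the median went from -0.02 to 0.10 with the adjustment. In the WNT list, FZD6, a Frizzled receptor, stood at 3818, 3127 and 3981 and at 5210, 4918 and 4932, and DKK3 stood at 46260, 46574 and 39154 and at 33890, 30550 and 29962. ITPR2, an IP3 receptor that releases calcium from the endoplasmic reticulum, stood at 1847, 1093 and 1655 and at 2472, 2307 and 2238 (log2 fold change 0.64 ± 0.19 (SE), limma adjusted p = 0.62). ORAI1, the store-operated calcium channel, stood at 937, 759 and 532 and at 533, 426 and 428. Over the lists with 15 or more genes tested, medians ran from -0.31 to 0.22, against 0.00 for all genes.

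**Figure D4:**
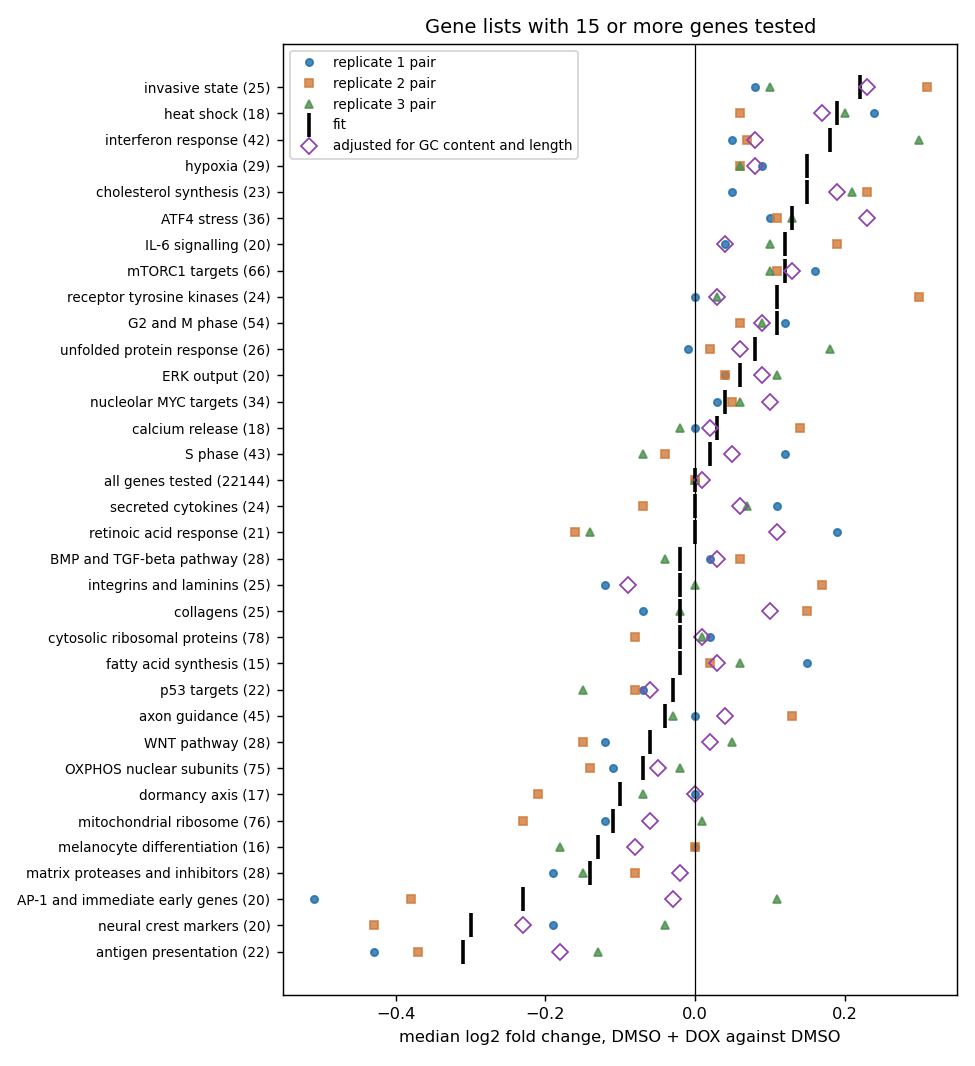
Median log2 fold change of DMSO + DOX against DMSO (x axis) for each gene list with 15 or more genes tested (number in brackets); colored symbols are the 3 same-numbered pairs, black bars the fit, and open diamonds the fit adjusted for GC content and length. The invasive state list lay at 0.22 before and 0.23 after the adjustment, and AP-1 and immediate early genes at -0.23 before and -0.03 after.

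The same DOX contrast was also fitted under BRAFi + MEKi. In that arm 74 genes were called (0.334%), 44 higher and 30 lower, and with the replicate block 202 higher and 162 lower. The test of the difference between the 2 DOX effects called 0 genes (0%), with 1267 genes at an unadjusted p under 0.05 and 0 with the replicate block, for which the smallest limma adjusted p was 0.054. With array weights it called 20 genes, and with the GC and length adjustment and the block 4. List medians of the difference, DMSO minus BRAFi + MEKi, ran from -1.10 in G2 and M phase genes to 0.70 in secreted cytokines. The median DOX effect of the G2 and M phase genes was 0.11 under DMSO and 1.22 under BRAFi + MEKi. NR2F1 reached 35187, 35345 and 30839 in BRAFi + MEKi + DOX from 4575, 2805 and 2966, a log2 fold change of 3.33 ± 0.38 (SE). Its DOX effect under DMSO was lower than that by 1.40 ± 0.53 (SE) on the log2 scale (limma adjusted p = 0.84, or 0.22 with the block). IL6 stood at 435, 475 and 539 without DOX and at 1362, 946 and 1036 with it (log2 fold change 1.19 ± 0.21 (SE), limma adjusted p = 0.028). Its DOX effect was larger under DMSO by 1.39 ± 0.29 (SE), which did not pass the test over all genes (limma adjusted p = 0.53).

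Between cell lines, the NR2F1 difference under DMSO was smaller in 1205Lu than in WM793. WM793 went from 917, 321 and 1511 in DMSO to 76313, 52746 and 65751 in DMSO + DOX, a log2 fold change of 6.39 ± 0.57 (SE). A375 went from 497, 405 and 563 to 19001, 31631 and 17271, a log2 fold change of 5.49 ± 0.27 (SE). All 3 DMSO libraries of 1205Lu (2182 to 6273) were above all DMSO libraries of the other lines. The difference, 1205Lu minus WM793, was -4.46 ± 0.69 (SE) on the log2 scale (limma adjusted p = 0.0024). The difference from A375 was -3.56 ± 0.70 (SE), and its call depended on the setting (limma adjusted p = 0.058 without the block and 0.0098 with it, and from 0.029 to 0.16 under the other settings tried). Of 22074 genes tested within WM793, 113 were called (0.512%), and of 24370 within A375, 12 were called (0.0492%).

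IL6 rose in WM793 too, from 105, 124 and 134 to 419, 1003 and 459 (log2 fold change 2.25 ± 0.33 (SE), limma adjusted p = 0.012), and the effects of the 2 lines differed by 0.33 ± 0.93 (SE). The fit behind that SE takes in A375, where IL6 was low and scattered, at 40.2, 14.5 and 3.94 in DMSO and 29.6, 23.2 and 3.15 with DOX, without a call.

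**Figure D5:**
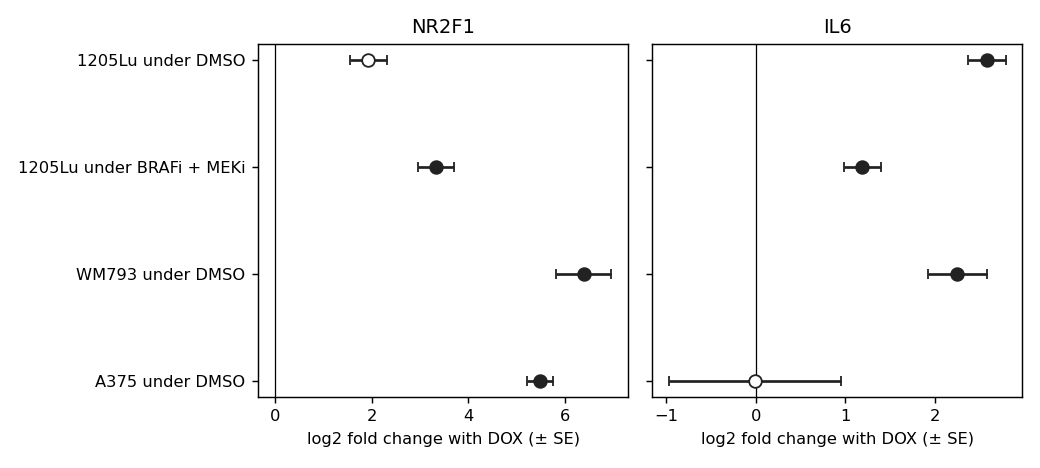
Log2 fold change with DOX (x axis, ± SE) of NR2F1 and IL6 in 1205Lu under DMSO and under BRAFi + MEKi and in WM793 and A375 under DMSO; filled circles had an adjusted p under 0.05 in the fit of their line without the block. NR2F1 lay at 1.93 in 1205Lu under DMSO against 3.33 to 6.39 elsewhere, and IL6 at 2.58 in 1205Lu and 2.25 in WM793.

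Over all genes, the DOX effect under DMSO differed between 1205Lu and WM793 for 18 genes (0.0749% of 24038 tested) and between 1205Lu and A375 for 4 (0.0154% of 26022), or for 84 and 7 genes with the replicate block. RARB, for which the difference from WM793 was -1.85 ± 0.34 (SE), had a mean of 1288 in DMSO and 1626 in DMSO + DOX in 1205Lu and of 71.1 and 365 in WM793 (limma adjusted p = 0.015). The other genes in this paragraph were chosen after their values were seen. FRMD3 had means of 346 and 406 in 1205Lu and of 3143 and 817 in WM793, and RPS6KA3, which encodes the ERK-activated kinase RSK2, had means of 6562 and 8238 in 1205Lu and of 8068 and 5257 in WM793. SKP2, the F-box protein that targets p27 for degradation, had means of 2258 and 2334 in 1205Lu and of 2466 and 15267 in A375, a difference of -2.50 ± 0.36 (SE). In these genes the larger move with DOX was in the other line, while in 1205Lu the log2 fold changes were 0.24 for FRMD3, 0.34 for RPS6KA3 and 0.05 for SKP2. Not every called gene shared this. TCEA2 moved more in 1205Lu, with log2 fold changes of -1.02 there and 0.55 in WM793. TJP1 moved about equally, at 0.44 and -0.46.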

How the data were processed

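RNA of 1205LuTR-NR2F1 cells was sequenced after TruSeq RNA v2 library preparation, in 3 libraries per group. According to the labels and the study's methods, the authors aligned reads with STAR to GRCh38, quantified genes with RSEM and normalized them with DESeq2. The deposited signal values hold this normalized expression, with no filter on genes. They are not counts, since only 4.7% to 40.2% of low values were whole multiples (within 0.01) of the commonest one. Of 60656 identifiers, 60401 had a symbol in GENCODE 44.

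Here log2(value + 1) was tested with limma 3.58.1 (R 4.3.3, moderated test with a trend) in all 12 libraries of 1205Lu. Genes averaging 1 or more in any group were kept, with Benjamini-Hochberg adjustment at 0.05. Effects were compared between lines in 1 fit of 36 libraries. The fit was tested on simulated data. The study states that replicates were independent experiments, and p-values measure the spread between the libraries. On principal component 2 of the 12 libraries, an axis of their spread, DMSO + DOX replicates 1 to 3 lay at 14.6, -15 and -15.4. On component 3 they lay at 31.4, 0.8 and 0.5. In BRAFi + MEKi + DOX, component 2 gave 30.6, -42.6 and -43.9. Replicates 2 and 3 with DOX were thus close together, and whether they were independent of each other was not tested. Over genes averaging 30 or more, deviations of same-numbered DMSO and DMSO + DOX libraries correlated at 0.42, 0.21 and 0.24, so the numbers were taken as pairs and the block is given where it changes a call. Between replicate 1 and the other numbers, r over these genes was -0.32 to -0.20, and between replicates 2 and 3 it was 0.08 and 0.15. Over all genes tested, r was 0.20, 0.05 and 0.09 for the same numbers, and 0.06 both ways between replicates 2 and 3. Replicate 1 was thus set apart more clearly than replicates 2 and 3 were from each other. The adjustment for GC content and length (natural splines on each library's deviation from the gene's mean) was chosen after seeing the data.

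Genes were named by a rule: the COUP-TF receptors and their antisense RNAs; called genes averaging 30 or more with no overlap between groups, up to 15 per direction, with and without the block; and in each list the 3 members of that level with the smallest unadjusted p, of which a part is given. Members and the 41 lists were chosen with earlier results of these data known, and 1 list was added after the calls. Results for some genes are not reported here.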

Additional observations from a re-analysis of the deposited data

Results flagged for a closer look

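The NR2F1 difference under DMSO differed between lines: the DOX effect in 1205Lu minus that in WM793 was -4.46 on the log2 scale (limma adjusted p = 0.0024), and it was lower in 1205Lu in all 6 fits that left out 1 of its libraries. RARB differed in the same contrast by -1.85 on the log2 scale (limma adjusted p = 0.015). In all, the DOX effect under DMSO differed from that in WM793 for 18 genes and from that in A375 for 4 genes.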

How the results depend on the processing

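The number of genes raised was 1, and it became 2 with the replicate block, 0 in a fit of only the 6 libraries compared (limma, with 1645 genes at an unadjusted p under 0.05), 0 in that fit with the replicate block (1989 genes), 5 with array weights and the replicate block, and 2 with the GC and length adjustment and the replicate block. The number lowered was 1, and 0 in both fits of only the 6 libraries. Leaving out 1 library gave 1 to 2 raised genes and 0 to 6 lowered genes, the 6 without DMSO replicate 3, and with the replicate block 1 to 3 raised and 0 lowered. The NR2F1 log2 fold change of 1.93 was called with the replicate block (1.93), with array weights and the block (1.91), and with the GC and length adjustment and the block (2.08). Leaving out 1 library moved it from 1.54 to 2.42, and 1.76 to 2.21 with the block, and only the fits without DMSO replicate 1 called it. The count of 0 genes that differed between DMSO and BRAFi + MEKi became 20 with array weights and 4 with the GC and length adjustment and the block. The 18 genes that differed from WM793 became 84 with the replicate block, 29 with a pseudocount of 0.1 and 96 with array weights, and ranged from 11 (without DMSO + DOX replicate 2) to 27. The 4 that differed from A375 became 7 with the block, 38 with a pseudocount of 0.1, 27 without a filter, 7 with rescaled libraries and 20 with array weights, and ranged from 3 to 7. The causes were not tested. No result changed direction and kept or gained a call. The deposited values hold no read counts, so no counting interval is given.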
